A study of Mus musculus with 4 samples.

Results

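The genes described here handle lactate and pyruvate in the left ventricular free wall of VSFP2.3 transgenic (TG) and wild-type (WT) mice. They were the rows of the raw count table whose gene name was Ldha, Ldhb, Gm11814, Slc16a1, Slc16a3, Mpc1, Mpc2, Pdha1, Pdk1 or Pdk2, which gave 10 of 38355 genes, and all 10 passed the filter on low counts. Of these, 9 were named for their function, and the pseudogene Gm11814 was included because an earlier look at these libraries had found it over 4-fold higher in both TG mice. Its TG and WT values are therefore a description with no test, and the same holds for the other members in that comparison.

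VSFP2.3 is a fluorescent indicator of membrane voltage, targeted to heart muscle cells according to the series title, and the stated aim was to determine whether it is toxic to the heart. The study has 2 WT and 2 VSFP2.3 transgenic mice, untreated, all from the same parents, with 1 library per mouse from total RNA. WT 1 and TG 1 were males of 35 weeks and WT 2 and TG 2 females of 19 weeks, so sex and age cannot be told apart. With 4 animals, p-values measure only the spread among them. The sources used here do not give the strain or the transgene's promoter, and transgene reads were not analysed, so no targeted gene checked the genotype labels.

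Lactate dehydrogenase is a tetramer of A and B subunits that interconverts pyruvate and lactate. The A subunit, from Ldha, predominates in glycolytic tissue, and the B subunit, from Ldhb, predominates in the heart, a tissue that takes up lactate as fuel. Lactate crosses the plasma membrane through monocarboxylate transporters, pyruvate enters mitochondria through a carrier built from MPC1 and MPC2, and the pyruvate dehydrogenase complex then commits it to oxidation unless a pyruvate dehydrogenase kinase phosphorylates and inhibits the complex. A processed pseudogene is a copy of a spliced messenger RNA that was written back into the genome, and reads from parent and copy can be hard to assign where the sequences match.

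Copies of several of these genes were counted separately, so their sequences are shown first. All transcripts of GENCODE vM21 were searched with the Ldha coding transcript. The release uses mouse assembly GRCm38, the same assembly as mm10, which the submitters named. The search found 27 processed pseudogenes that matched Ldha at 80% identity or more over at least 200 bp. The count table held 14 of them, and only Gm11814 and Gm13315 reached 10 counts in any library. The other 12 in the table had at most 2 counts. Copies outside the table have no counts here, among them Gm5452 (95.9% identity over 997 bp) and Gm9247 (95.6% over 1000 bp).

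Gm11814 (ENSMUSG00000084215) lies on the minus strand of chromosome 4, 10438815 to 10439743, as 1 exon of 929 bp. Ldha (ENSMUSG00000063229) lies on the plus strand of chromosome 7, 46841475 to 46855627. Against the 996 bp Ldha coding sequence, Gm11814 had 884 identical bases, 42 mismatches and 70 missing bases, an identity of 95.5% outside the gaps. The longest identical stretch was 82 bases, and 53 of the 877 windows of 50 bases in Gm11814 matched Ldha without a difference. The 120 aligned bases with the most differences, 10 in all, are shown 5′ to 3′ with differing bases in capitals. They cover coding bases 385 to 504 of Ldha, spliced across an intron, and chr4:10439292-10439411 on the minus strand for Gm11814.
Ldha: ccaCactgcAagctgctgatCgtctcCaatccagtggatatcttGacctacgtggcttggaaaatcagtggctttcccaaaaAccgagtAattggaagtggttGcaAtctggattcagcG
Gm11814: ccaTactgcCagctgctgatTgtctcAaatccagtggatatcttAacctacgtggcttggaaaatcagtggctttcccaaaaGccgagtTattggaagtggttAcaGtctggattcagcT

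Ldhb (ENSMUSG00000030246, chromosome 6, 142490249 to 142507957, minus strand) has a closer copy, Gm5514, on chromosome 19, 21937380 to 21938381. The copy spans the 1002 bp coding sequence with no gap, at 98% identity with 20 mismatches, and 339 of 953 windows of 50 bases were identical. The stretch with the most mismatches, 5 in 120 bases, lies within 1 exon of Ldhb at chr6:142498545-142498664 on the minus strand and at chr19:21937641-21937760 on the plus strand in the copy, and capitals again mark the differing bases.
Ldhb: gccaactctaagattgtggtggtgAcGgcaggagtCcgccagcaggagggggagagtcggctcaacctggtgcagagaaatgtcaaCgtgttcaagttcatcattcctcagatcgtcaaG
Gm5514: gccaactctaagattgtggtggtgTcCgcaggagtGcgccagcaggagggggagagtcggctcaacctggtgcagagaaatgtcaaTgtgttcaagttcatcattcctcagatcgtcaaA

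Mpc1 (ENSMUSG00000023861, chromosome 17, 8282904 to 8297661, plus strand) is almost indistinguishable from its copy Mpc1-ps on chromosome 12, 110858565 to 110858894. Only 1 of 327 coding bases differed, and 237 of 278 windows of 50 bases were identical. The first 120 coding bases of Mpc1, spliced, and chr12:110858775-110858894 on the minus strand hold that base, in capitals.
Mpc1: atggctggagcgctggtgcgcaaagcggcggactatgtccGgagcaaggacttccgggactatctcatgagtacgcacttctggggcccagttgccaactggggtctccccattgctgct
Mpc1-ps: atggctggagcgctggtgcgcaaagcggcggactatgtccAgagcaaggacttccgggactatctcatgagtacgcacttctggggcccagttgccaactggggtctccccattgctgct

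All 10 cardiomyocyte markers were detected in every library, with Ttn, the giant sarcomere protein gene, taking 6.54 to 11.2% of all counts. The label is left ventricle, but WT 2 alone carried 3 atrial transcripts, those of the myosin light chain genes Myl7 (1111 counts against 0 to 5 in the other libraries) and Myl4 (1182 against 10 to 19) and of Sln, a regulator of the calcium pump (299 against 0 to 1). Total counts ran from 14158440 to 16762713 per library. The summed level of 10 leukocyte markers was 1176 CPM (counts per 1e+06 of the library total after trimmed-mean scaling) in WT 1 and 978 CPM in TG 2. It was 245 CPM in WT 2 and 241 CPM in TG 1. In bulk tissue, fewer cells of a type and less RNA per cell cannot be told apart. Without WT 2, the TG to WT log2 ratio was 2.22 for Gm11814, -0.15 for Ldha, 0.19 for Ldhb and 0.39 for Pdk2, and the other 6 members ran from -0.28 (Pdk1) to 0.44 (Slc16a3).

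Gm11814 stood far above its WT level in both transgenic hearts. Its counts were 51 in WT 1, 52 in WT 2, 216 in TG 1 and 203 in TG 2. In CPM this was 3.10 and 3.33 in WT against 15.4 and 13.5 in TG, or 3.21 ± 0.159 and 14.4 ± 1.33 (SD, n = 2 each). The TG mouse was 4.95-fold higher in the male pair and 4.05-fold higher in the female pair, and each TG value lay above both WT values. The fitted log2 ratio was 2.16 ± 0.21 (SE). These values chose the gene and are given with no test. The other 9 members were chosen by name, and their fitted TG to WT log2 ratios ran from -0.16 to 0.36.

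The parent gene Ldha had slightly lower values in TG. Its CPM was 406 in WT 1 and 410 in WT 2, with 355 in TG 1 and 375 in TG 2, so both TG libraries lay below both WT libraries. The log2 ratio was -0.16 ± 0.13. In absolute terms Gm11814 was higher by 12.3 CPM in the TG male and 10.2 CPM in the TG female than in the matched WT mouse, while the Ldha differences, TG minus WT, were -50.7 and -35.0 CPM. Ldha and Gm11814 together stood at 409 and 414 CPM in WT and at 370 and 389 CPM in TG.

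Gm11814 took 0.758% of the counts of Ldha plus Gm11814 in WT 1 (95% exact binomial interval 0.565 to 0.996%) and 0.804% in WT 2 (0.601 to 1.05%). The share was 4.15% in TG 1 (3.62 to 4.72%) and 3.47% in TG 2 (3.01 to 3.97%). These shares rest on the values that chose Gm11814, so they are a description too. The intervals cover counting error only, with each count taken as independent, and leave out the spread between mice. The labels mention no molecular identifiers, so this independence was not checked.

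The other counted Ldha copy did not show this pattern. Gm13315, on chromosome 2, matched Ldha at 91.7% identity over 999 bp in the BLAST search, where Gm11814 matched at 88.7% over 999 bp, gaps included. Gm13315 was at 5.17 and 4.16 CPM in WT against 4.27 and 4.12 CPM in TG. It took 1.26% and 1.00% of the counts of Ldha plus Gm13315 in WT and 1.19% and 1.09% in TG, all within overlapping intervals. Whether reads were divided between Ldha and Gm11814 in the same way in all 4 libraries was not tested, since read positions were not analysed here.

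**Figure D1:**
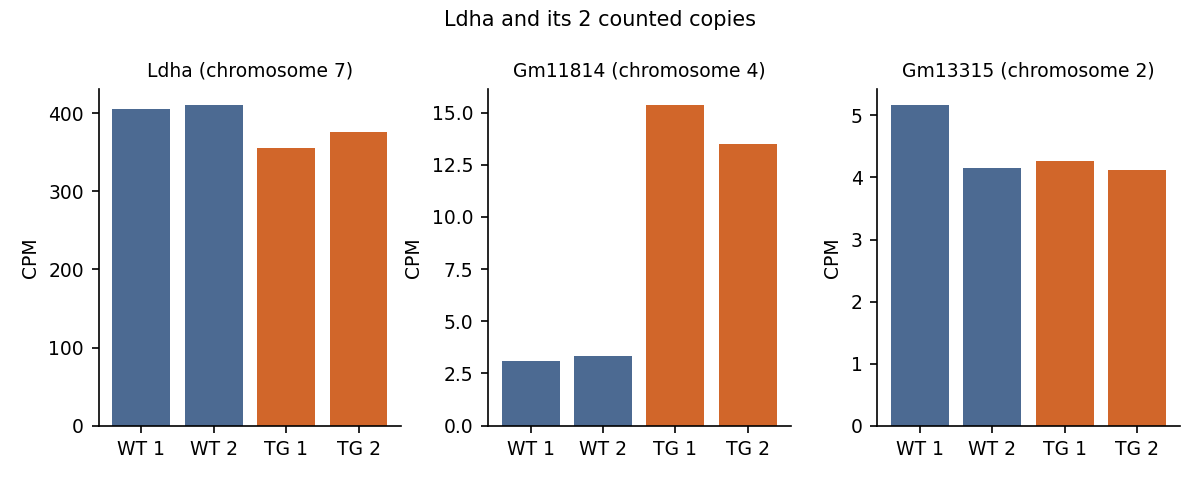
CPM of Ldha and of its 2 copies with at least 10 counts, as 1 bar per library (WT blue, TG orange), each panel on its own linear axis from 0. Gm11814 stands at 15.4 and 13.5 CPM in TG against 3.10 and 3.33 in WT, while Ldha is at 355 and 375 against 406 and 410 and Gm13315 between 4.12 and 5.17 in all 4 libraries.

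No annotated gene overlaps the exons of Gm11814 or of Ldha. The nearest annotated genes to Gm11814 are the pseudogene Gm11835, 479 kb away with 0 counts in every library, and the noncoding gene 1700123O12Rik, 40.2 kb away with 2 counts in WT 2 and 0 in the others. The nearest tested genes were Gdf6, a growth factor gene of the bone morphogenetic protein family 576 kb away, with 7 to 18 counts in WT and 5 to 21 in TG, and 2610301B20Rik, 435 kb away, at 11.2 and 9.79 CPM in WT and 10.9 and 10.6 CPM in TG. Neither had the pattern of Gm11814. Beside Ldha, the germ cell isoform Ldhc, 5.58 kb away, had 0 counts in all 4 libraries, so at most 3 counts are allowed in each. The nearest tested neighbours of Ldha were the transcription factor subunit gene Gtf2h1, with a TG to WT log2 ratio of -0.08 ± 0.14, and the endosomal sorting gene Tsg101, at 0.25 ± 0.14. The annotated gene Gm45308, 8.60 kb before Ldha, was not in the count table.

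The genes whose log2 CPM over the 4 libraries lay closest to the profile of Gm11814, by root mean square distance after centring, were Psmc3ip, a meiotic recombination cofactor (distance 0.13), and Kcnj14, an inward rectifier channel gene (0.42). They were followed by the retinoic acid hydroxylase gene Cyp26b1 (0.48), the scaffold gene Ush1c (0.54) and 8430408G22Rik (0.55). Psmc3ip stood at 1.82 and 1.47 CPM in WT and at 7.82 and 7.70 CPM in TG. These 5 genes were picked for a profile like that of Gm11814, so their TG to WT difference follows from that choice. None of them lies on chromosome 4 with Gm11814. Ush1c and Kcnj14 lie on chromosome 7, at 603 kb and 1017 kb from Ldha. The 19 tested genes within 1 Mb of Ldha had a median TG to WT log2 ratio of 0.0097, with a range of -0.56 to 2.52 whose upper end is Ush1c. The profiles nearest to that of Ldha were those of the mitochondrial ribosomal protein gene Mrps14 (0.0069), the splicing factor gene Bcas2 (0.010) and the death receptor adaptor gene Tradd (0.011).

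**Figure D2:**
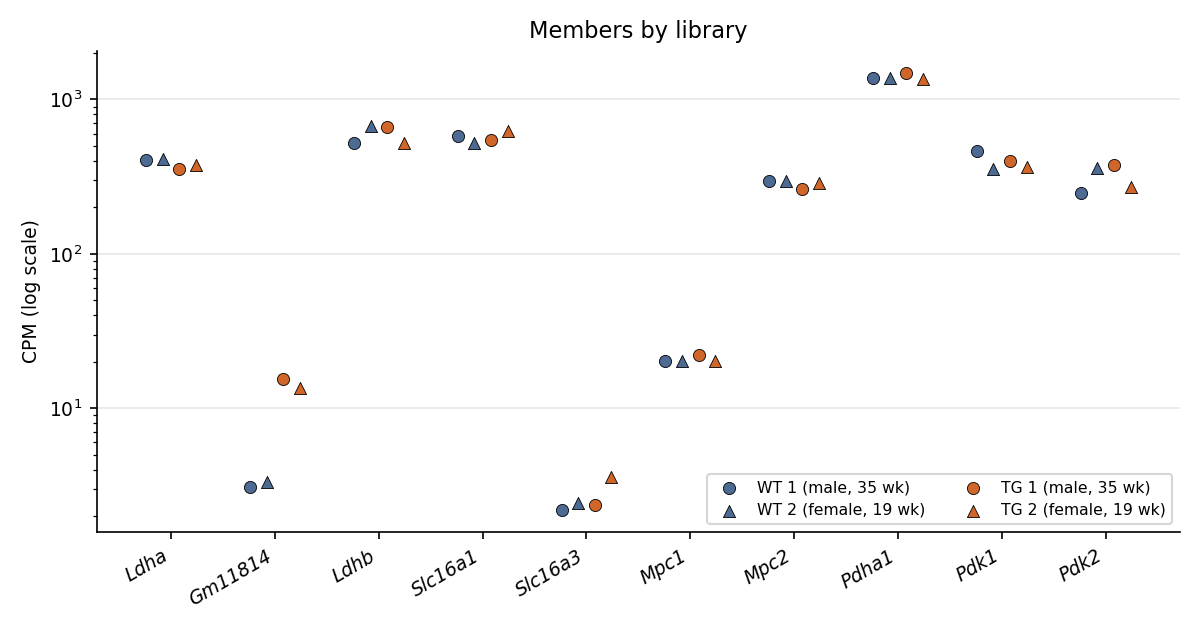
CPM of the 10 members on a log axis, 1 point per library (WT blue, TG orange, circles for the 35-week males, triangles for the 19-week females). Gm11814 is the member whose TG points stand furthest from its WT points, and Pdha1, at 1352 to 1492 CPM, is the most counted member.

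The copies of the other members took similar shares of the counts in all 4 libraries. Gm5514 took 12.2% and 11.3% of the counts of Ldhb plus Gm5514 in WT 1 and WT 2 and 12.4% and 11.7% in TG 1 and TG 2. Mpc1-ps took most of the counts of its family, 80.2% and 77.3% in WT and 77.2% and 78.2% in TG, which leaves 305 to 331 counts per library on Mpc1 itself. The Pdha1 copy 4930519F09Rik, 90.9% identical outside gaps, took 1.29 to 1.53% of the counts of its family. The levels of Mpc1, and to a lesser degree of Ldhb, are thus uncertain, because the counting could divide reads between near-identical sequences. Exons of Mpc1 also overlap those of 4930506C21Rik on the opposite strand over 23.1% of their length, with at most 2 counts on that gene. Exons of Pdha1 overlap those of the opposite-strand gene Map3k15 over 16.2%, with 25 to 44 counts there. The library kit keeps the strand, but the sources used here do not give the strand setting of the counting.

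**Figure D3:**
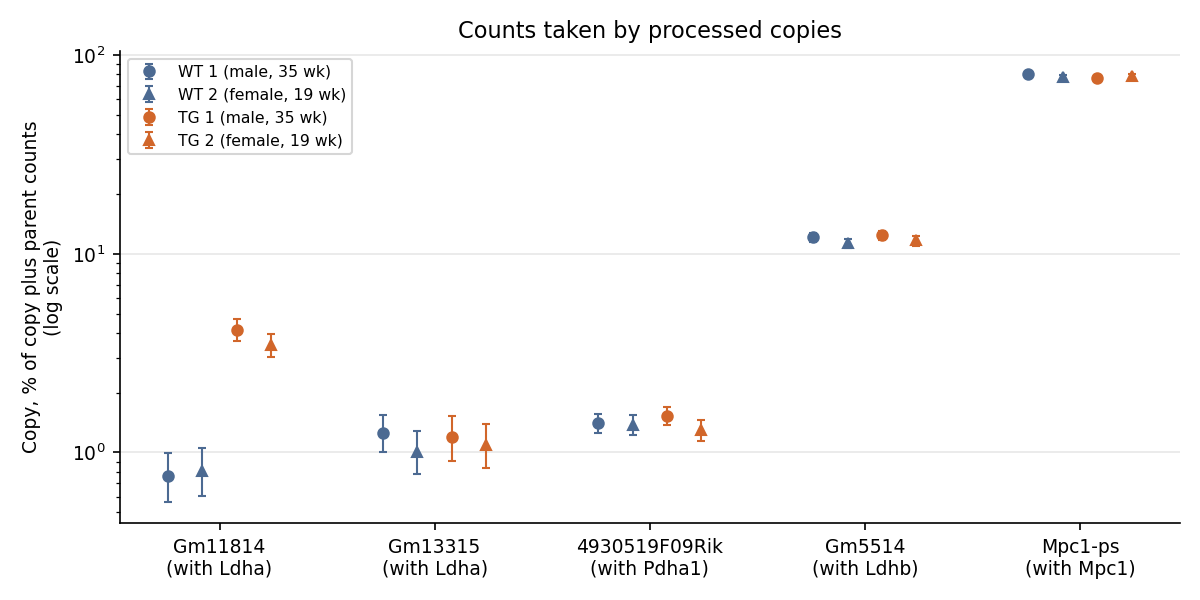
Counts on each processed copy as a percentage of copy plus parent counts, on a log axis, 1 point per library with 95% exact binomial intervals for counting error. Gm11814 is at 0.758 and 0.804% in WT and 4.15 and 3.47% in TG, and the 4 other copies stay within 1.00 to 1.26%, 1.29 to 1.53%, 11.3 to 12.4% and 77.2 to 80.2%.

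Per kilobase of exon, Ldhb and Pdha1 were the highest members and did not differ beyond their spread, at 378 ± 53.7 and 376 ± 16.7 CPM per kilobase (SD, n = 4). Slc16a1 (128 ± 9.88), Ldha (117 ± 8.18) and Pdk2 (99.2 ± 19.8) came next, and the mean ± SD ranges of neighbours overlapped. Pdk1 followed at 51.2 ± 6.34, Mpc2 at 39.0 ± 2.09, Mpc1 at 9.93 ± 0.449 and Slc16a3 at 0.496 ± 0.12. Gm11814, at 3.34 and 3.58 CPM per kilobase in WT and 16.5 and 14.5 in TG, lay below Mpc1 in both WT hearts and above it in both TG hearts, where Mpc1 was at 10.6 and 9.73. With the longest transcript as the length Mpc1 was at 20.9 to 23.0, above Gm11814 in all 4 hearts. The place of Mpc1 in these orders is uncertain, since its copy Mpc1-ps, at 226 ± 16.3, took most of the counts of that family. With the longest transcript as the length, Ldha was at 213, above Pdk2 at 140 and Slc16a1 at 128, so the order of these 3 depends on the length used. Slc16a3 was lowest with both lengths.

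Among the lactate dehydrogenases, Ldhb led Ldha in every heart. Per kilobase of exon Ldhb made up 73.0% of the sum of both in WT 1, 77.5% in WT 2, 79.7% in TG 1 and 74.5% in TG 2. With the longest transcript as the length these shares were 64.0%, 69.4%, 72.2% and 65.8%. Ldhb itself was at 519 and 668 CPM in WT 1 and WT 2 and at 663 and 520 CPM in TG 1 and TG 2. WT 2 and TG 1 were thus high and WT 1 and TG 2 low, and the genotypes overlapped fully, with a TG to WT log2 ratio of -0.0060 ± 0.21. Its copy Gm5514 was likewise higher in WT 2 and TG 1 than in WT 1 and TG 2, at 71.9 and 85.3 CPM in WT and 93.7 and 68.5 CPM in TG.

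For lactate transport, Slc16a1, which encodes the widespread transporter MCT1, stood at 579 and 524 CPM in WT and at 548 and 623 CPM in TG, a log2 ratio of 0.09 ± 0.15. The groups overlapped. Slc16a3, which encodes MCT4, the exporter of glycolytic cells, had only 33 to 54 counts per library, at 2.19 and 2.43 CPM in WT and 2.35 and 3.59 CPM in TG. Its share of both transporters per kilobase of exon was 0.314 to 0.477%.

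Each subunit gene of the mitochondrial pyruvate carrier kept a similar level across the hearts, and Mpc2 was counted far more than Mpc1. Mpc2 stood at 295 and 298 CPM in WT and at 265 and 289 CPM in TG, both TG values lying below WT, with a log2 ratio of -0.10 ± 0.14. Mpc1 stood at 20.1 and 20.2 CPM in WT and at 22.1 and 20.3 CPM in TG, at 0.07 ± 0.14, with TG 2 barely above WT 2. Mpc1 and Mpc1-ps together stood at 102 and 89.0 CPM in WT and 96.9 and 92.9 CPM in TG, where the groups overlapped.

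Pdha1, the X-linked catalytic E1 alpha subunit of pyruvate dehydrogenase, stood at 1379 and 1387 CPM in WT and at 1492 and 1352 CPM in TG, a log2 ratio of 0.04 ± 0.14. The kinase gene Pdk1 stood at 467 and 357 CPM in WT and at 400 and 368 CPM in TG, at -0.10 ± 0.18. Pdk2, the kinase found in most tissues, stood at 249 and 357 CPM in WT and at 378 and 272 CPM in TG, at 0.10 ± 0.26. As with Ldhb, WT 2 and TG 1 had the high Pdk2 values and WT 1 and TG 2 the low ones.

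Among the kinases, the shares of Pdk2, Pdk3 and Pdk4 followed this split, with Pdk3 and Pdk4 opposite to Pdk2, and that of Pdk1 did not. The shares are parts of the same sum, so they do not move independently. Pdk2 made up 34.8% of the summed Pdk1 to Pdk4 level per kilobase of exon in WT 1 and 34.3% in TG 2, against 47.9% in WT 2 and 56.6% in TG 1. Pdk3 and Pdk4 are no members and were added after their values were seen. Pdk4, the kinase that responds to fasting and fatty acids, made up 37.9% in WT 1 and 46.1% in TG 2, against 31.9% in WT 2 and 18.5% in TG 1. Pdk1 made up more in the males, 26.6% in WT 1 and 24.4% in TG 1, against 19.5% in WT 2 and 18.8% in TG 2. Pdk3, with 40 to 75 counts per library, made up 0.747% in WT 1 and 0.775% in TG 2, against 0.679% in WT 2 and 0.527% in TG 1.

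**Figure D4:**
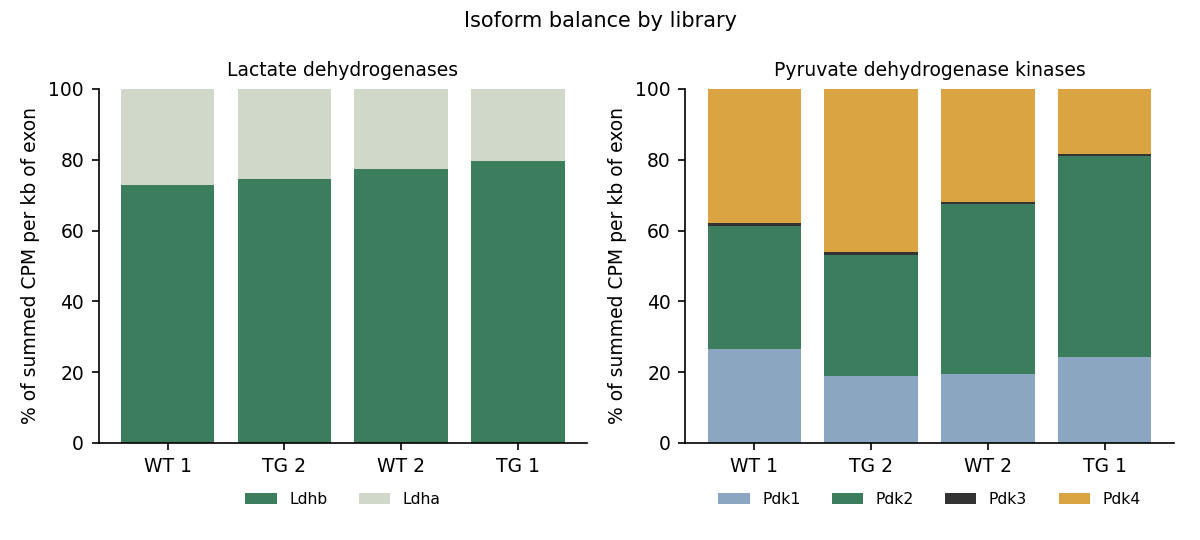
Share of each isoform in the summed CPM per kilobase of exon, for Ldha and Ldhb on the left and Pdk1 to Pdk4 on the right, as stacked bars per library, with WT 1 and TG 2 drawn before WT 2 and TG 1. From left to right the Ldhb share is 73.0, 74.5, 77.5 and 79.7%, and the Pdk2 share is 34.8, 34.3, 47.9 and 56.6%.

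Between the genotypes, no member was called in the edgeR fit, a quasi-likelihood test adjusted by Benjamini-Hochberg, which called 0 of 14189 genes (0%). An unadjusted edgeR p below 0.05 was found for 99 of the 14189 genes, against 2304 for the difference between pairs described below. The fit has no block, so differences within a genotype count as error, and 0 calls do not show that the genotypes are alike. Limma-voom called 0 and DESeq2 called 3 (0.0211%). Gm11814 was among those 3, a call made on the values that chose it. Both TG libraries lay above both WT libraries for 2 of 10 members, Gm11814 and Mpc1, against 10.3% of all tested genes, and below for 2, Ldha and Mpc2, against 10.7%. Nothing is read from these counts, since the comparison chose a member. The median log2 ratio of the 9 members other than Gm11814 was 0.04, beside -0.01 for all tested genes.

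The choice of members did not use the difference between the 35-week males and the 19-week females, where the same test called 4 genes (0.0282%) and 0 of 10 members. Member adjusted p-values were all 0.999 by edgeR. Pdk1 was higher in both males than in both females, with a log2 ratio of 0.26 ± 0.14, and Slc16a3 lower, at -0.41 ± 0.34. Such separation was found for 15.5% and 15.9% of tested genes in these directions.

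The members were also tested for a TG to WT ratio that was not the same in the 35-week male pair and the 19-week female pair. With 1 mouse per sex and genotype, such a difference cannot be told apart from differences between individual mice. With 4 libraries the interaction was the only term fitted, so the test compares WT 2 and TG 1 with WT 1 and TG 2, and the log2 ratio given is that of the first over the second. It was chosen with earlier results of these libraries known. It called 386 genes (2.72%) and 0 of 10 members in the same edgeR fit. The smallest member adjusted p by edgeR was that of Pdk2, at 0.0994, with a log2 ratio of 0.50 ± 0.11. Ldhb followed at 0.36 ± 0.11 and an edgeR adjusted p of 0.184. Within the pairs, the log2 TG to WT ratio of Pdk2 was 0.60 in the males and -0.39 in the females, and that of Ldhb 0.35 and -0.36.

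DESeq2, which called 703 genes (4.95%), called Pdk2 with an adjusted p of 0.0252, so the call for Pdk2 depends on the tool. Values of Ldhb, Pdha1 and Pdk2 were higher in both WT 2 and TG 1 than in both others, as were those of 22.9% of tested genes, and values of Slc16a1 were lower, as were those of 24.6%. Slc16a1 had a log2 ratio of -0.16 ± 0.11 and an edgeR adjusted p of 0.547. Gm11814 was at 0.17 ± 0.85, in a comparison where each side holds 1 WT and 1 TG library.

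Of the cell type marker lists, leukocyte markers had calls in this comparison, with 1 atrial marker beside them. The leukocyte sums given above were higher in WT 1 and TG 2, and 7 of 9 tested leukocyte markers were called lower in WT 2 and TG 1 by edgeR, with a median log2 ratio of -1.69. The summed cardiomyocyte markers were 124161 CPM in WT 1, 127877 CPM in TG 2, 168151 CPM in WT 2 and 198681 CPM in TG 1, with 0 of 10 called and a median of 0.08. Ttn, Myh6 and Ryr2 had log2 ratios of 0.78, 0.59 and 0.74, while Nkx2-5 was at -0.46, Actc1 at -0.07 and Pln at -0.06. In the same order of libraries, endothelial markers summed to 929, 992, 1206 and 1049 CPM and fibroblast markers to 1691, 1729, 1848 and 1768 CPM. Erythroid markers summed to 719 CPM in WT 1 and to 142 to 236 CPM in the others, with Hba-a2 at 0 counts in all 4 libraries. The 4 atrial markers did not move together. Nppa, the atrial natriuretic peptide gene that stressed ventricle also expresses, was at 3707 CPM in WT 1, 4228 CPM in TG 2, 1057 CPM in WT 2 and 1556 CPM in TG 1 and was called lower in WT 2 and TG 1 by edgeR. Myl4, Myl7 and Sln were high in WT 2 alone, and the median of the 2 tested markers was 1.73. Skeletal muscle markers summed to 3.63 to 8.51 CPM and adipocyte markers to 4.27 to 8.23 CPM, with up to 2 of 8 and 1 of 4 at 0 in a library. Without WT 2, the fit set TG 1 alone against WT 1 and TG 2, which is no longer a difference between pairs. Its log2 ratio was 0.35 for Ldhb and 0.54 for Pdk2. The part of leukocytes and the other cell types in the Ldhb and Pdk2 values was not tested.

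**Figure D5:**
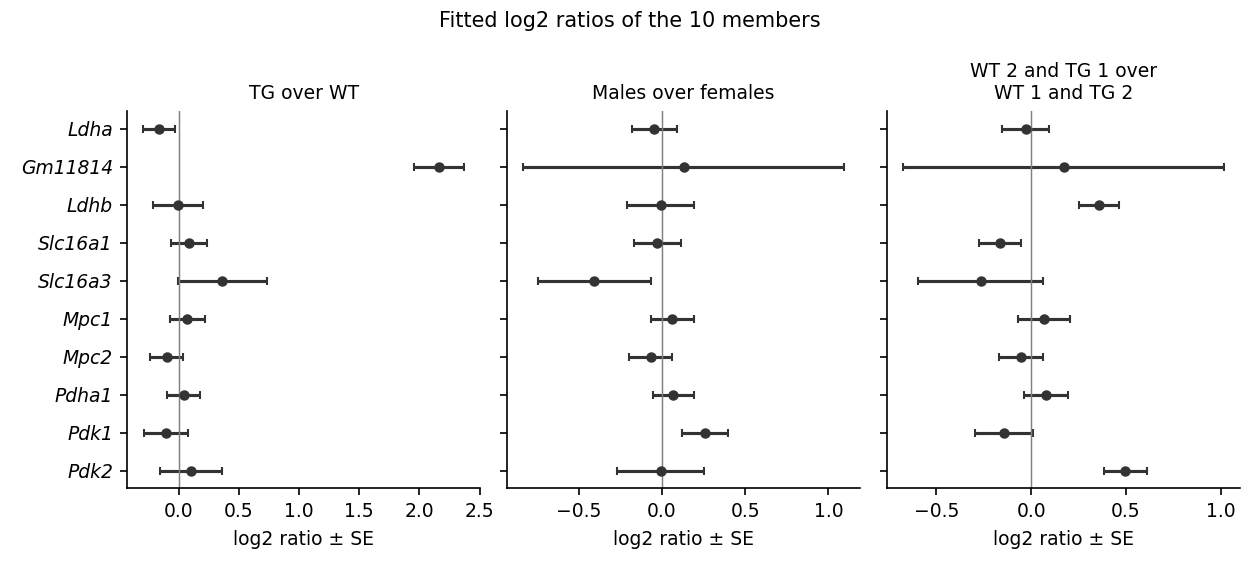
Fitted log2 ratios of the 10 members (points) with their standard errors (bars) for TG over WT, 35-week males over 19-week females, and WT 2 and TG 1 over WT 1 and TG 2, each panel with its own axis. Gm11814 stands at 2.16 ± 0.21 in the first panel, and Pdk2 at 0.50 ± 0.11 and Ldhb at 0.36 ± 0.11 in the third.

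In the wider pathway, 36 further genes were listed, covering lactate dehydrogenases, transporters and their chaperones, the pyruvate dehydrogenase complex with its kinases and phosphatases, other pyruvate enzymes and the malate-aspartate shuttle. The table held 34 and 27 were tested. None was called in either direction in any of the 3 comparisons, with edgeR adjusted p-values down to 0.102. Between TG and WT their median log2 ratio was -0.01, as for all tested genes, and 13 of 27 were above 0. The highest were Pdpr, a regulator of the pyruvate dehydrogenase phosphatase, at 0.44 ± 0.26, and Pdp2, a catalytic subunit of that phosphatase, at 0.28 ± 0.18. Pdpr was at 237 CPM in TG 1 and 138 to 146 CPM in the other libraries. The lowest were Slc16a7, the transporter MCT2, at -0.23 ± 0.39, and the D-lactate dehydrogenase gene Ldhd at -0.12 ± 0.15.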

How the data were processed

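Left ventricular RNA from 4 mice, with a RIN above 7 in all per the labels, was made into stranded total RNA libraries and sequenced on an Illumina instrument. Per the submitters' processing notes, the tools were STAR 2.3.0 and HTSeq 0.6.1 with CASAVA 1.8.2, FastQC 0.10.0 and DESeq, on build mm10. Not given in the sources used here are read length, annotation release and strand setting. The authors' deposited raw counts per gene were analysed, and a normalized table was not used.

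Genes passing edgeR's filterByExpr (minimum count 10) were fitted with edgeR 4.0.16 (quasi-likelihood, trimmed mean scaling, no block, Benjamini-Hochberg threshold 0.05) in R 4.3.3. CPM used the scaled library sizes. The standard error was the log2 ratio divided by the square root of the F statistic. DESeq2 1.42.0, limma-voom (limma 3.58.1), other scaling, no filter, each library left out and blocks were alternatives. The fits were tested on simulated data. Copies were found by BLAST against GENCODE vM21 transcripts, and the sequences come from that release. Per-kilobase levels used the summed exon length, with the longest transcript as the alternative.

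The members, lists and tests were chosen with earlier results of these data known. Beyond the members, the text names the closest profiles (5 for Gm11814, 3 for Ldha), the nearest neighbours, the copies, and the 2 highest and 2 lowest pathway genes by TG to WT ratio.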

Additional observations from a re-analysis of the deposited data

How the results depend on the processing

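The count of genes called between TG and WT, 0 by edgeR, was 3 with DESeq2 and 0 to 8 with each library left out, 8 without WT 1. Between males and females, 4 became 7 with no filter, 34 with DESeq2, 0 with genotype as a block and 0 to 9 with each library left out. For the difference between pairs, 386 became 908 with no filter, 703 with DESeq2 and 44 (without WT 1) to 366 with each library left out, with 110 without TG 2. The replicate block gave 0 calls between TG and WT. Libraries of the same number share sex and age by their labels. Their deviations from the group means had a correlation of -0.45, which with 2 libraries a group is the same for both pairs by construction and does not show what else they share. Blocking on the crossed pairing also gave 0 calls.

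With each library left out, the log2 ratio between TG and WT was 2.07 to 2.26 for Gm11814 and -0.20 to -0.12 for Ldha. The Gm11814 range rests on the values that chose the gene, so it does not show stability. For the same comparison the ranges crossed 0 for Ldhb (-0.19 to 0.19), Slc16a1 (-0.0094 to 0.18), Pdha1 (-0.0301 to 0.11), Pdk1 (-0.28 to 0.11) and Pdk2 (-0.15 to 0.39), and Slc16a3 ran from 0.02 to 0.64. For the difference between pairs, leaving out a library leaves 1 library on 1 side. The log2 ratio was then 0.43 to 0.56 for Pdk2 and 0.35 to 0.36 for Ldhb. With all 4 libraries the adjusted p of Pdk2 was 0.0252 by DESeq2 and 0.0994 by edgeR. Between males and females, Ldhb turned to 0.0030 and Pdk2 to 0.0030 with no filter, and Gm11814 to -0.0039 with limma-voom. Leaving out libraries there gave ranges across 0 for Ldha (-0.144 to 0.0437), Ldhb (-0.20 to 0.18), Gm11814 (-1.44 to 1.47), Slc16a1 (-0.15 to 0.10), Mpc1 (-0.0111 to 0.13), Mpc2 (-0.15 to 0.0050) and Pdk2 (-0.34 to 0.26). For the difference between pairs it did so for Ldha (-0.138 to 0.0721), Gm11814 (-1.31 to 1.58), Slc16a3 (-0.58 to 0.12), Mpc2 (-0.142 to 0.0303) and Pdk1 (-0.304 to 0.0396). The causes of these changes were not tested. With 33 to 54 counts, Slc16a3 had the widest counting error relative to its level among the members in every library. Gm11814 had 51 and 52 counts in WT.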
